A study of Mus musculus with 4 samples.

Results

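Rn7sk, Rpph1, Rmrp and Vaultrc5 are 4 small noncoding RNAs of the kind that RNA polymerase III makes, and they were taken by symbol from a table of 37411 gene rows. They were chosen by their high counts in these libraries and with their values known, so their levels are given as a description, with no test of the level. Rn7sk, Rpph1 and Rmrp were among the 8 most counted genes in every library, whereas Vaultrc5 ranked between 1772 and 8466. The label of an abundant RNA therefore holds for Vaultrc5 only per length. There it ranked 56 in IgG 1, 33 in IgG 2, 323 in KIF5C 1 and 73 in KIF5C 2.

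The RNA came down with an antibody against KIF5C, a neuronal heavy chain of the motor kinesin-1, or with a control antibody, from hippocampi of adult mice (7 to 9 weeks old). The KIF5C group was labelled with a kinesin antibody from Millipore, which the series describes as precipitating KIF5C, and the IgG group with a mouse IgG control antibody from Thermofischer. Hippocampi of 2 mice went into each co-immunoprecipitation, and 6 of these were combined into 2 samples, so that each antibody has 2 libraries (IgG 1, IgG 2, KIF5C 1 and KIF5C 2). Whether the 6 were counted per antibody, the strain and the sex of the mice are not given in the labels used here. Separate animals behind the 2 libraries of an antibody are not stated either, so a p-value here reflects how these particular libraries vary, and that variation could be technical. No library of input RNA was analysed here, so higher or lower always means one precipitate against the other. In such bulk libraries, fewer cells of a type, less RNA per cell and less RNA recovered with an antibody cannot be told apart.

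Polymerase III makes short RNAs without poly(A) tails. 7SK RNA, the product of Rn7sk, is the scaffold of a nuclear particle in which HEXIM proteins hold the elongation kinase P-TEFb (CDK9 with a cyclin T) inactive, with LARP7 bound at its 3′ end and MEPCE capping its 5′ end. Rpph1 encodes the catalytic RNA of RNase P, which trims the 5′ leader from precursor tRNAs, and Rmrp encodes the RNA of RNase MRP, which shares most of its proteins with RNase P and cuts precursor rRNA. Vaultrc5 encodes the vault RNA, a minor part of the vault, a large barrel-shaped particle built of the major vault protein.

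The sequences of the 3 most counted RNAs are shown because their values carry most of what follows, and because parts of 2 of them are shared with exons of other genes. They are GENCODE release M21 transcripts on GRCm38, written as DNA 5′ to 3′, all from the minus strand, with bases 1 to 120 of Rn7sk, 1 to 280 of Rpph1 and the whole of Rmrp. Capitals mark GATC (GAUC in the RNA) in Rn7sk, a word that recurs in the 5′ hairpin to which HEXIM binds in human 7SK. In Rpph1 they mark the bases that also lie in exons of Ccnb1ip1, and in Rmrp those that lie opposite exons of Ccdc107.
Rn7sk: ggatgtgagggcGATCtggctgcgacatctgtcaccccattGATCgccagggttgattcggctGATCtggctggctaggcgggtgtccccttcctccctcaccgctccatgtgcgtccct
Rpph1: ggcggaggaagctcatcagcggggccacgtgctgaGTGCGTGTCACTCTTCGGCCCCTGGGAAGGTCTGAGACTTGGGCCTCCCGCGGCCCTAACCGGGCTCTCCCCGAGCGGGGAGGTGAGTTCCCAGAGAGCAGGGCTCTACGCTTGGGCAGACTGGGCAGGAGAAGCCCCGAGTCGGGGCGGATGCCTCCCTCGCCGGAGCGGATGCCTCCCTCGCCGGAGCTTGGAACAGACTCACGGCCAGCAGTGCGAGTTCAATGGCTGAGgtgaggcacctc
Rmrp: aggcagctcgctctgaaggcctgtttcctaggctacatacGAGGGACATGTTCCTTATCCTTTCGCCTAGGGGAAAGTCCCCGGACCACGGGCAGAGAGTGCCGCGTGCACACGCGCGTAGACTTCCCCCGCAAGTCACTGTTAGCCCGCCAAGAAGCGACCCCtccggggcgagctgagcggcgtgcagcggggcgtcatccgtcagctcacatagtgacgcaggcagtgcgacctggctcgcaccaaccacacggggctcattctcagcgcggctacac

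Rn7sk (chr9:78175303-78175633) is annotated as a miscellaneous RNA of 331 nt with 58.0% GC, and its 3 copies of GATC begin at positions 13, 42 and 64 from the 5′ end. At least 3 copies were present in 9.15% of the 4689 annotated transcripts of 300 to 360 nt, so this number of copies is not rare at that length. Rpph1 (chr14:50807449-50807767), annotated as a ribozyme of 319 nt with 67.1% GC, holds a stretch of 21 nt that is repeated in tandem from positions 182 and 203. Rmrp (chr4:43492783-43493063) has 281 nt and 63.7% GC as a lincRNA entry and 271 nt as a ribozyme entry of the same symbol, and the table gives a single row for both. Vaultrc5 (chromosome 18, 36801866 to 36802008, plus strand) is the shortest, a miscellaneous RNA of 143 nt with 53.9% GC, and its sequence is not shown.

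The 4 RNAs had few annotated copies over most of their length, and shorter stretches shared with other transcripts were not counted. Annotated transcripts with at least 80% identity over at least 80% of the length numbered 1 for Rn7sk, 3 for Rpph1 (the RNase P RNA-like genes Rprl1, Rprl2 and Rprl3), 0 for Rmrp and 1 for Vaultrc5. The rows of these copies held at most 4 counts in a library for Rn7sk and at most 3 for Rpph1, and 0 in every library for Vaultrc5. Exons of Ccnb1ip1, which encodes a meiotic ubiquitin ligase, lie on the same strand over 233 nt (73.0%) of Rpph1, and Ccnb1ip1 was listed at 0 in all 4 libraries. Exons of Ccdc107, a coiled-coil protein gene, cover 124 nt (44.1%) of Rmrp on the opposite strand, and whether the counting used strand is not given in the sources used here. Ccdc107 itself had 58 and 45 counts in the IgG libraries and 119 and 84 in the KIF5C libraries, against at least 56009 for Rmrp. Parp2, a DNA repair gene 74 nt from Rpph1, had 57 to 126 counts, and C920006O11Rik, 281 nt from Rn7sk, had 33 to 62.

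The libraries held 11059266 to 15172432 counts. They differed in makeup more by number than by antibody, with the mitochondrial 16S rRNA mt-Rnr2 at 7.36% (IgG 1) and 11.3% (KIF5C 1) of counts against 32.2% (IgG 2) and 31.9% (KIF5C 2). The share of protein-coding genes was 69.4% and 75.1% in the first pair and 38.4% and 49.0% in the second. Scaling by the trimmed mean of M-values (TMM) therefore multiplied library sizes by 0.712 (IgG 2) to 1.28 (KIF5C 1). Markers of hippocampal and other neurons and of glia were present in every library (summed excitatory neuron markers 1611 to 2158 CPM), and 5 liver genes that the tissue should lack summed to at most 0.621 CPM. The 5 markers of choroid plexus, none of them at 0 in all libraries, summed to 436 and 236 CPM in IgG 1 and 2. They summed to 168 and 130 in KIF5C 1 and 2. Most of each sum was Ttr, at 400 and 213 CPM in IgG 1 and 2 and at 136 and 99.4 in KIF5C 1 and 2. Ttr was the 1 of the 5 past the threshold, as lower (-1.38, edgeR adjusted p = 0.0166). Of the 5 markers, 4 were negative and 1 was positive, Kl (0.30, SE 0.25). The 5 oligodendrocyte markers, none at 0, summed to 1772 and 1762 CPM in the IgG libraries and to 1451 and 1574 in the KIF5C libraries. Of these 1, the myelin gene Mog, passed as lower (-0.82, edgeR adjusted p = 0.0380). The median log2 fold change of the 5 was -0.03, with 3 negative and 2 positive, Mag (0.64, SE 0.24) and Mobp (0.20, SE 0.21). No other marker of the lists passed. The part of these differences in the values of the 4 RNAs was not tested.

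7SK RNA alone took a large share of every library. Rn7sk had 1522148 counts in IgG 1 and 1765311 in IgG 2, and 825119 in KIF5C 1 and 1660720 in KIF5C 2. As shares of all counts these were 12.1% (exact 95% binomial interval 12.1 to 12.2), 16.0% (15.9 to 16.0), 5.44% (5.43 to 5.45) and 11.4% (11.3 to 11.4). These intervals cover counting error only, since reads are not independent molecules. It was the most counted gene in IgG 1 and the second most counted in the other 3 libraries, and per kb of annotated transcript it ranked first in all 4. Rn7sk made 74.2% to 76.7% of the sum of the 4 RNAs, which together took 16.3% and 21.1% of the IgG libraries against 7.09% and 15.3% of the KIF5C libraries.

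**Figure D1:**
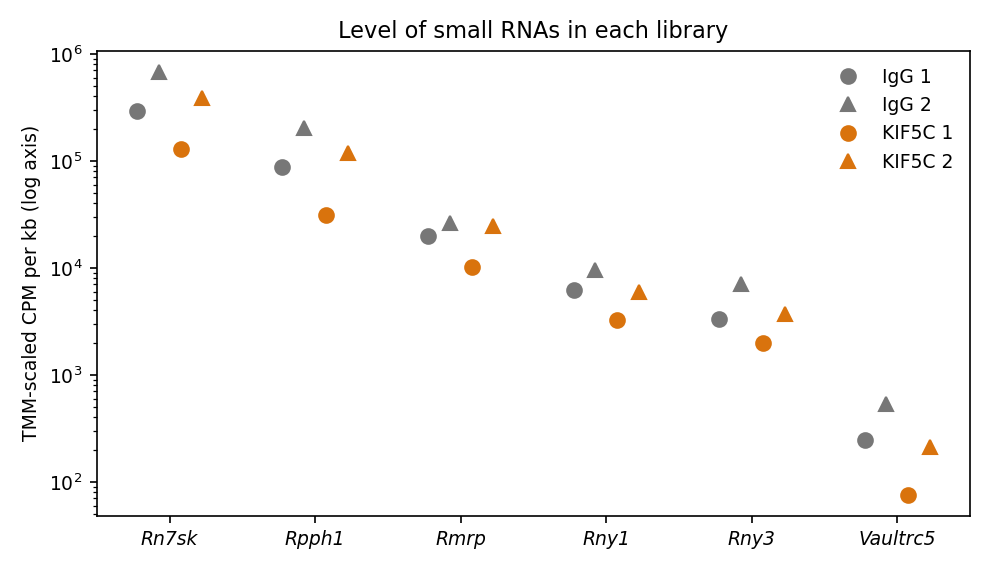
Level of the 4 RNAs and of the Y RNAs Rny1 and Rny3 in each library, as TMM-scaled CPM per kb of the longest annotated transcript on a log axis. Circles are libraries numbered 1 and triangles those numbered 2, grey for IgG and orange for KIF5C. For every RNA shown, KIF5C 1 was the lowest library and IgG 2 the highest.

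The order per kb was Rn7sk, Rpph1, Rmrp and then Vaultrc5 in every library, and neighbours in that order did not overlap over the 4 libraries except for Rn7sk and Rpph1. Rn7sk stood at 293957 and 677413 TMM-scaled CPM per kb in the IgG libraries and at 128485 and 389519 in the KIF5C libraries. Rpph1 stood at 87267 and 200826 in the IgG libraries and at 31415 and 119143 in the KIF5C libraries. The highest level of Rpph1 thus exceeded the lowest level of Rn7sk, although within each library Rn7sk was 3.27 to 4.09 times as high. Rmrp lay between 10273 and 26208, and Vaultrc5 between 76.1 and 536. Levels per kb of RNAs this short depend on how the authors' counting treated length, which is not given in the sources used here.

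All 4 RNAs had a negative log2 fold change of KIF5C over IgG, and 1 of them, the vault RNA, passed the threshold of an adjusted p of 0.05 in edgeR's quasi-likelihood test. Over all 14357 genes tested, 4.07% passed in either direction and 0.745% passed as lower. The RNAs were chosen with these values known, so nothing is read from the count, and each p below serves only to place the RNA in the table. With 2 libraries against 2, an exact permutation test of a single RNA gives a two-sided p of 0.333 at the smallest.

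Vaultrc5 had 552 and 603 counts in the IgG libraries and 211 and 391 in the KIF5C libraries. In TMM-scaled CPM these were 35.3 in IgG 1, 76.6 in IgG 2, 10.9 in KIF5C 1 and 30.4 in KIF5C 2. Both KIF5C libraries lay below both IgG libraries, as they did for 26.2% of all genes tested, and the nearest pair, KIF5C 2 and IgG 1, differed by 1.16-fold. The antibody means were 55.9 ± 29.2 CPM for IgG and 20.6 ± 13.8 for KIF5C (SD, n = 2 each). The log2 fold change was -1.44 (SE 0.38, edgeR adjusted p = 0.0447). The call was lost without IgG replicate 2 (-0.79, edgeR adjusted p = 0.319) or KIF5C replicate 1 (-0.87, 0.302), with DESeq2 (-1.43, 0.344), with library totals (-1.28) and with offsets for transcript length and GC content (-0.95, edgeR adjusted p = 0.0789), while the value was -2.34 without KIF5C replicate 2.

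Rn7sk measured 97300 CPM in IgG 1, 224224 in IgG 2, 42528 in KIF5C 1 and 128931 in KIF5C 2. KIF5C 1 was the lowest, but KIF5C 2 was higher than IgG 1, so the antibodies overlapped. Between libraries of the same number KIF5C was the lower, at log2 ratios of -1.19 (KIF5C 1 over IgG 1) and -0.80 (KIF5C 2 over IgG 2). The log2 fold change was -0.91 (SE 0.73, edgeR adjusted p = 0.500) and did not pass. The libraries of an antibody differed by 2.30-fold for IgG and 3.03-fold for KIF5C, and the ratios of each KIF5C library to each IgG library ran from -2.40 to 0.41 on the log2 scale. As a share of all counts, which takes no account of the makeup of the library, Rn7sk was lower in both KIF5C than in both IgG libraries, as were 6.46% of all genes tested.

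The catalytic RNA of RNase P followed 7SK RNA closely. Rpph1 measured 27838 CPM in IgG 1, 64064 in IgG 2, 10021 in KIF5C 1 and 38007 in KIF5C 2. The order of the libraries was that of Rn7sk, again with KIF5C 2 above IgG 1, and the log2 fold change was -0.94 (SE 0.64, edgeR adjusted p = 0.419). The KIF5C libraries differed by 3.79-fold, more than the antibody means. Its shares of all counts were 3.47% and 4.56% in the IgG libraries against 1.28% and 3.35% in the KIF5C libraries. Both KIF5C shares lay below both IgG shares, as they did for 6.46% of all genes tested. In 2 other fits Rpph1 passed, with no low-count filter (-0.90, edgeR adjusted p = 0.0439) and with the replicate number as a block (-1.11, 0.0247).

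The RNase MRP RNA differed least between the antibodies. Rmrp measured 5540 CPM in IgG 1, 7364 in IgG 2, 2887 in KIF5C 1 and 6889 in KIF5C 2. KIF5C 1 stood apart from the other 3 libraries, and KIF5C 2 lay between the IgG libraries. The log2 fold change was -0.40 (SE 0.43, edgeR adjusted p = 0.630), and it turned to 0.10 (0.978) without KIF5C replicate 1. Its shares of all counts, at 0.691% and 0.524% for IgG and 0.369% and 0.607% for KIF5C, overlapped too.

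**Figure D2:**
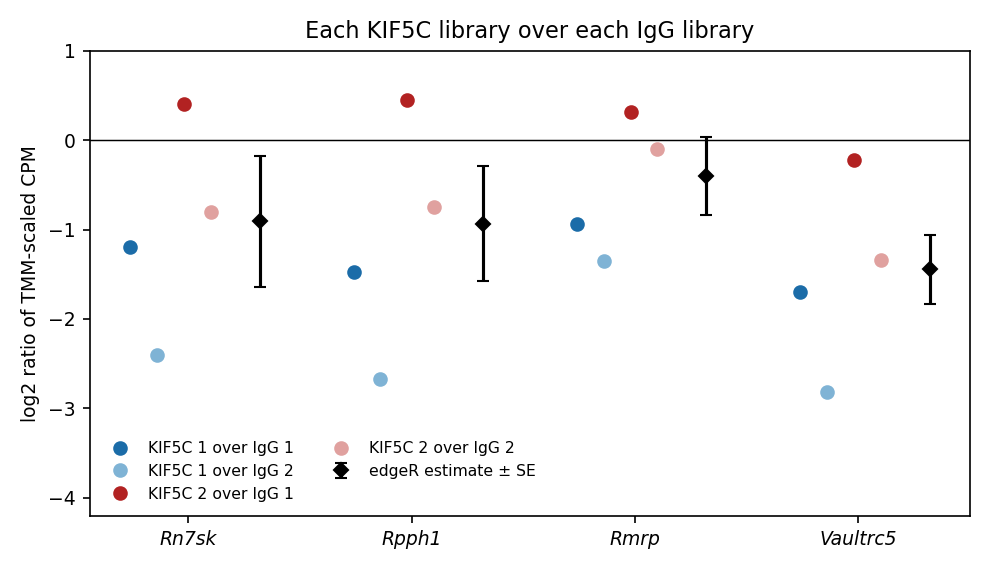
The log2 ratio of TMM-scaled CPM for each KIF5C library over each IgG library (coloured points) and the edgeR estimate with its SE (black diamonds) for the 4 RNAs. KIF5C 2 over IgG 1 was above 0 for Rn7sk (0.41), Rpph1 (0.45) and Rmrp (0.31) and at -0.22 for Vaultrc5. Both ratios of KIF5C 1 were below 0 for all 4 RNAs. So was KIF5C 2 over IgG 2, at -0.80 for Rn7sk, -0.75 for Rpph1, -0.10 for Rmrp and -1.34 for Vaultrc5. Each KIF5C library was thus below the IgG library of its own number, which the labels do not call a shared batch.

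Read in the direction of the counts, the authors' deposited table gave all 4 RNAs as higher with IgG. None passed an adjusted p of 0.05 there. The label of that table reads IP against control. Yet its log2 value was -0.995 for the polymerase subunit gene Polr2f, whose counts were higher with KIF5C. The table's values are therefore taken here as IgG over KIF5C. Its log2 values of IgG over KIF5C were 0.55 for Vaultrc5 (SE 0.33, adjusted p = 0.346), 0.33 for Rn7sk (SE 0.33, adjusted p = 0.606), 0.32 for Rpph1 (SE 0.32, adjusted p = 0.612) and 0.32 for Rmrp (SE 0.26, adjusted p = 0.516). The submitters' notes name DESeq, and the authors' unadjusted p-values lay near those of DESeq2 here. They were 0.312 against 0.308 for Rn7sk, 0.318 against 0.314 for Rpph1, 0.220 against 0.219 for Rmrp and 0.0978 against 0.0998 for Vaultrc5. The authors' log2 values are smaller in size than those fitted here from the counts, and why is not given in the sources used here.

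Ratios between the RNAs within a library do not depend on the scaling of that library. Rn7sk and Rpph1 kept nearly the same proportion, with a ratio per kb of 3.37 in IgG 1, 3.37 in IgG 2, 4.09 in KIF5C 1 and 3.27 in KIF5C 2, a span of 1.25-fold over libraries in which Rn7sk alone spanned 5.27-fold and Rpph1 6.39-fold. The ratio of Rn7sk to Rmrp spanned 2.07-fold, from 12.5 in KIF5C 1 to 25.9 in IgG 2. Rn7sk was 1191 and 1265 times as high as Vaultrc5 per kb in the IgG libraries and 1689 and 1835 times in the KIF5C libraries. The ratio of Rpph1 to Vaultrc5 was 354 and 375 with IgG and 413 and 561 with KIF5C, and that of Rmrp to Vaultrc5 was 79.9 and 48.9 with IgG and 135 and 116 with KIF5C. All 3 ratios to the vault RNA were therefore higher in both KIF5C than in both IgG libraries. Set against each other gene tested, Vaultrc5 included, the same held in 0.146% of ratios for Rn7sk, 0.0418% for Rpph1 and 0.947% for Rmrp. The 3 ratios share Vaultrc5, the RNA with the lowest fold change of the 4, so these percentages partly restate that fold change. Vaultrc5 had at most 603 counts, and its ratios were compared after its fold change was known, so they are a description.

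**Figure D3:**
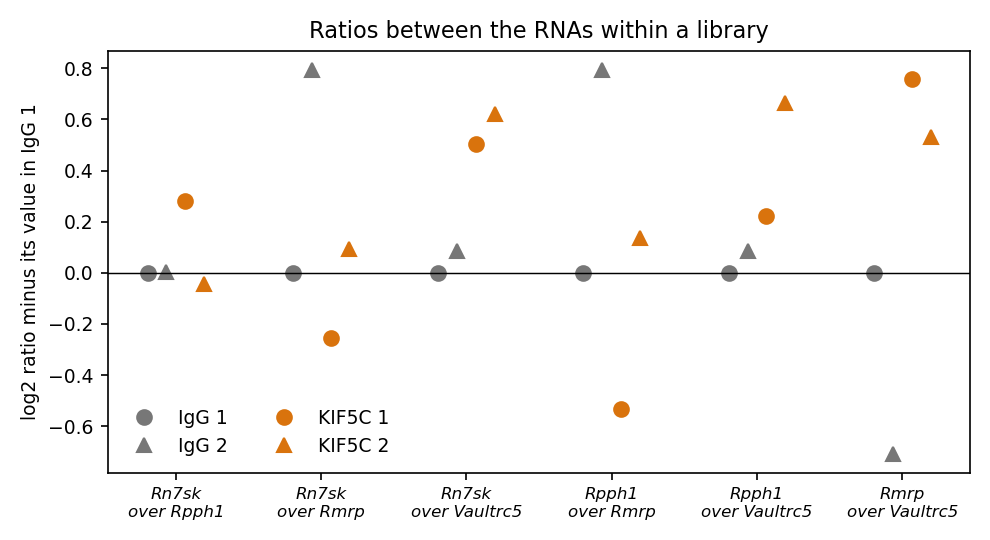
The log2 ratio per kb between each pair of the 4 RNAs in each library, minus its value in IgG 1. The 3 ratios to Vaultrc5 were above both IgG libraries in both KIF5C libraries, and the ratio of Rn7sk to Rpph1 spanned 0.32 on the log2 scale.

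Of 9192 genes compared (mean log2 CPM 3 or more, predicted genes and pseudogenes left out), the small nucleolar RNA Snord17 had the pattern closest to Rpph1 over the 4 libraries, with a root mean square distance of 0.09 between log2 values centred on each gene's mean. Rn7sk (0.13) and the small nucleolar RNA Snord22 (0.24) came next. For Rn7sk the closest were Snord17 (0.12), Snord22 (0.13) and Rpph1 (0.13), and for Vaultrc5 they were Snord17 (0.21), Snord22 (0.23) and Rn7sk (0.25). Snord17 measured 44.8 and 116 CPM in the IgG libraries and 17.1 and 58.3 in the KIF5C libraries, which is the order of libraries of Rn7sk at a far lower level. The RNAs closest to Rmrp were the mRNAs of the RNA-binding protein gene Rbm4 (0.08), the ciliogenesis gene Wdpcp (0.09) and the phosphatase gene Cdc14b (0.10). Rmrp itself lay 0.39 from Rn7sk, 0.47 from Rpph1 and 0.55 from Vaultrc5. Each distance rests on 4 values and is given as a description.

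The other RNAs of polymerase III that were tested, Rny1, Rny3, Rn7s2 and Rn7s6, had negative fold changes as well. Y RNAs are short RNAs bound by the Ro and La proteins, and per kb Rny1 and Rny3 lay below Rmrp and above Vaultrc5 in every library. Rny1 measured 693 and 1076 CPM in the IgG libraries and 363 and 667 in the KIF5C libraries, a log2 fold change of -0.78 (SE 0.33, edgeR adjusted p = 0.177). Rny3 measured 339 and 721 in the IgG libraries and 200 and 380 in the KIF5C libraries, at -0.87 (SE 0.35, edgeR adjusted p = 0.162). The KIF5C libraries lay below both IgG libraries for Rny1, as for 26.2% of all genes tested, and overlapped them for Rny3. With the length and GC offsets both values turned, to 0.12 for Rny1 and 0.04 for Rny3, and with the replicate block both passed (-0.81, edgeR adjusted p = 0.0105, and -0.84, 0.00416). Rny1 also passed without IgG replicate 1 (-1.06, edgeR adjusted p = 0.0351), as did Rny3 (-1.31, 0.00889), and Rny3 passed with no low-count filter (-0.84, edgeR adjusted p = 0.0347) and without KIF5C replicate 2 (-1.39, 0.0442). Of the 7S RNA genes, Rn7s2 had 33 to 49 counts per library and a log2 fold change of -0.56 (SE 0.37), Rn7s6 had 12 to 26 counts and -0.95 (SE 0.53), and Rn7s1, with 4 to 10 counts, was not tested. The spliceosomal U6 RNA row Rnu6 had 3 counts in IgG 1 and 0 elsewhere, and Rprl1, Rprl2 and Rprl3 had at most 2.

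Among the other small noncoding RNAs by annotation, 18 of 18 miscellaneous RNAs, the Y RNAs included, and 16 of 16 spliceosomal snRNAs had a negative log2 fold change, with medians of -0.83 and -0.90 against -0.03 for all genes tested. The small nucleolar RNAs, which guide rRNA modification, had a median of -0.77 with 74 of 79 negative, and the small Cajal body RNAs, which guide snRNA modification, had a median of -1.09 with 9 of 11 negative. In edgeR 1, 0, 5 and 4 members of these classes passed as lower, in the order named, against 0.745% of all genes tested, and DESeq2 called 0, 0, 3 and 3. At an unadjusted p under 0.05, 7, 3, 34 and 7 were lower, against 9.06% of all genes tested. These counts moved with the fit, to 7, 10, 24 and 6 with the replicate block, 5, 8, 21 and 6 with no low-count filter, 8, 12, 21 and 4 when IgG replicate 1 was left out, and 6, 12, 13 and 3 when KIF5C replicate 2 was. They were 0, 0, 1 and 2 with the length and GC offsets, 0, 0, 3 and 5 when IgG replicate 2 was left out, 1, 0, 2 and 3 when KIF5C replicate 1 was, and 0 in each class with library totals. Over all genes the number called lower moved too, from 107 to 518 with the replicate block and to 4 with library totals. No member of the 4 classes passed as higher in edgeR, in DESeq2 or at an unadjusted p under 0.05. Rn7sk (-0.91) and Rpph1 (-0.94) lay near the medians of the miscellaneous RNAs and snRNAs, Vaultrc5 (-1.44) below every other miscellaneous RNA, the lowest of which was at -1.24, and Rmrp (-0.40) closer to 0. In the alternatives that tested all 18 miscellaneous RNAs, 15 to 18 were negative. Without IgG replicate 2 the snRNA median turned to 0.56, with 12 of 16 above 0. With offsets for length and GC content the medians were -0.46 for miscellaneous RNAs and -0.15 for snRNAs. They were -0.05 for small nucleolar RNAs and -0.58 for small Cajal body RNAs. The offsets were fitted to these same counts, so a shift of short RNAs towards 0 is built in.

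**Figure D4:**
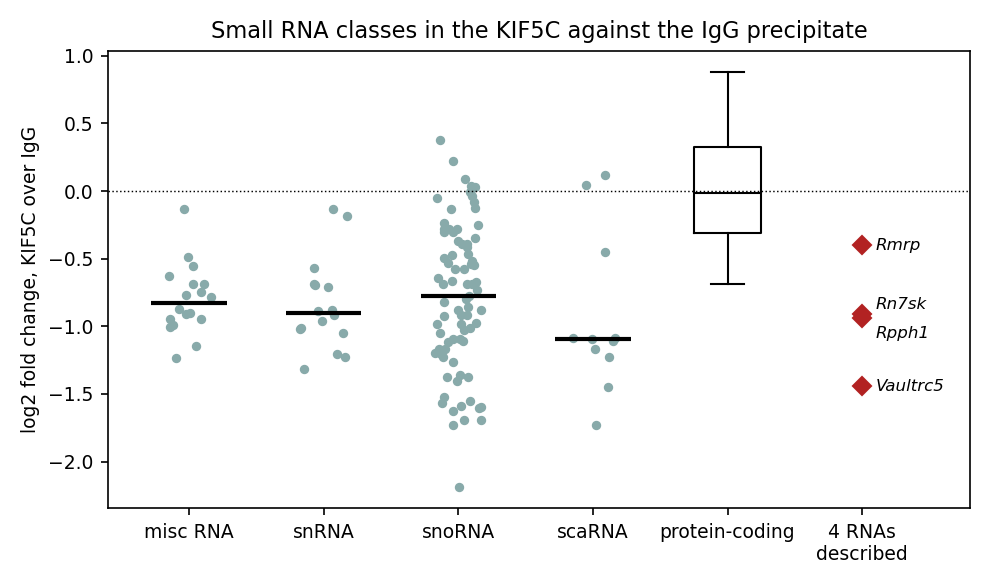
The log2 fold change of KIF5C over IgG for each tested gene of 4 small RNA classes (points, with the median as a bar), for protein-coding genes (box from the first to the third quartile, median line, whiskers to the 5th and 95th percentiles) and for the 4 RNAs described (diamonds). The class medians lay between -0.77 and -1.09, and that of protein-coding genes at -0.01.

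Genes with short transcripts, small RNAs of the classes above included, lay mostly in the same direction. This set held 199 genes tested whose longest transcript has at most 500 nt, with only the 4 RNAs left out. Of these, 168 had a negative value, with a median of -0.65. In edgeR 11 passed as lower and 1 as higher, against 0.745% and 3.33% of all genes tested. Short genes outside the small RNA classes were not examined apart, so these values do not describe them alone. The number called lower was 56 with the replicate block, 47 with no low-count filter, 50 when IgG replicate 1 was left out and 38 when KIF5C replicate 2 was. It was 4, against 3 called higher, with the length and GC offsets, and 1 with library totals. With the length and GC offsets the median of the 199 genes was -0.06. The 4 RNAs were then at -0.72 (Rn7sk), -0.87 (Rpph1), -0.22 (Rmrp) and -0.95 (Vaultrc5). The offsets were fitted to trends over the same genes and counts, so they draw the median of short genes towards no difference. Whether length or the class of RNA lies behind the lower values was not tested. A list of 10 long noncoding RNAs, taken here as nuclear without a measure of their place in the cell, had a median of 0.10. Of these, 3 were negative, and the median was -0.05 with the length and GC offsets. None of the 10 passed in edgeR as reported or in DESeq2, and 1 passed as higher with the replicate block. At an unadjusted edgeR p under 0.05, 1 was higher and 1 lower, against 12.4% and 9.06% of all genes tested. Malat1, an abundant RNA of nuclear speckles, measured 3015 and 3410 CPM in the IgG libraries against 4930 and 3488 in the KIF5C libraries (0.39, SE 0.35).

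Of the mRNAs of 63 proteins that bind these RNAs or make up the polymerase III machinery, 1 passed the threshold. It was the shared polymerase subunit gene Polr2f, higher with KIF5C. Over all genes tested, 4.07% passed in either direction. Of 11 genes of the 7SK particle and its bound hnRNPs, none passed in edgeR or DESeq2. At an unadjusted p under 0.05, 0 were higher and 0 lower, against 12.4% and 9.06% of all genes tested. Their median was 0.21, with 9 positive. Larp7 (0.25, SE 0.33), Mepce (0.01, SE 0.22), Hexim1 (0.01, SE 0.23) and Cdk9 (0.18, SE 0.23) were among these. Hnrnpr, whose protein binds 7SK RNA, had the smallest p of the list, at 32.8 and 37.6 CPM in the IgG libraries against 50.0 and 41.8 in the KIF5C libraries (0.39, SE 0.22, edgeR adjusted p = 0.316).

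Of 11 protein subunits of RNase P and RNase MRP, none passed in edgeR or DESeq2, with a median of -0.17. At an unadjusted p under 0.05, 1 was higher and 2 were lower, against 12.4% and 9.06% of all genes tested. The smallest p-values were those of Pop4 (-0.63, SE 0.23, edgeR adjusted p = 0.135), Pop5 (0.57, SE 0.23, 0.169) and Pop7 (-0.52, SE 0.24, 0.221), so subunits of the same enzymes had values on both sides of 0. Of the 3 vault proteins, Mvp, the major vault protein, was at -0.24 (SE 0.35), the vault-bound polymerase Parp4 at 0.36 (SE 0.30) and the telomerase-associated protein Tep1 at 0.32 (SE 0.38). None of the 3 passed in edgeR or DESeq2. At an unadjusted p under 0.05, 0 were higher and 0 lower, against 12.4% and 9.06% of all genes tested. All 3 were measured at low levels, with at most 5.36 CPM in a library.

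Polymerase III itself was represented by 18 subunit genes. In edgeR 1 passed as higher and 0 as lower, against 3.33% and 0.745% of all genes tested. At an unadjusted p under 0.05, 1 was higher and 1 lower, against 12.4% and 9.06%. Polr2f, a subunit shared by the 3 nuclear polymerases, measured 5.75 and 7.24 CPM in the IgG libraries and 13.8 and 16.3 in the KIF5C libraries. Both KIF5C libraries were above both IgG libraries, as they were for 26.3% of all genes tested. Polr2f had a log2 fold change of 1.22 (SE 0.25, edgeR adjusted p = 0.0161, adjusted p = 0.00793 with DESeq2). It missed the threshold without KIF5C replicate 2 (1.11, edgeR adjusted p = 0.0698) and with library totals. Polr2f (chromosome 15, 79141009 to 79151774) overlaps 1700088E04Rik on the opposite strand, which had 40 to 57 counts against 57 to 267 for Polr2f. Polr2k, another shared subunit, measured 4.47 and 7.62 CPM in the IgG libraries and 2.01 and 2.79 in the KIF5C libraries (-1.31, SE 0.36, edgeR adjusted p = 0.0510). Polr2k had at most 70 counts in a library. It passed without IgG replicate 1 (-1.68, edgeR adjusted p = 0.00708), with the replicate block (-1.29, 0.00446), with DESeq2's size factors (-1.31, 0.0497), with protein-coding totals (-1.37, 0.0450), with no low-count filter (-1.28, 0.00443) and with genes under a mean count of 50 left out (-1.32, 0.0366). With the length and GC offsets it was at -0.55 (edgeR adjusted p = 0.335). DESeq2 put Polr2k at -1.31 (DESeq2 unadjusted p = 0.00762) and gave it no adjusted p. The subunits found only in polymerase III, such as the catalytic subunits Polr3a (0.46, SE 0.25) and Polr3b (0.10, SE 0.23), did not pass. Polr3a passed as higher without IgG replicate 1 (0.88, edgeR adjusted p = 0.0241).

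Of 20 transcription factors and regulators of polymerase III, none passed in edgeR or DESeq2 (4 higher and 2 lower at an unadjusted p under 0.05, against 12.4% and 9.06% of all genes tested), with a median of 0.20. The smallest p-values were those of Gtf3a, the factor for 5S rRNA genes (-0.69, SE 0.23, edgeR adjusted p = 0.0936), Zfp143, an activator of small RNA genes (0.86, SE 0.32, 0.131) and the TATA-binding protein gene Tbp (-0.54, SE 0.21, 0.157). Gtf3a passed as lower with the length and GC offsets (-0.82, edgeR adjusted p = 0.0325), and Zfp143 as higher with no low-count filter (0.89, edgeR adjusted p = 0.0386). A pair of others is named because they passed in an alternative fit. Snapc3, a subunit of the complex that binds the promoters of small nuclear RNA genes, passed as higher with the offsets (0.84, edgeR adjusted p = 0.0313). Gtf3c1, the largest subunit of TFIIIC, passed as higher with the replicate block (0.56, edgeR adjusted p = 0.0491) and without IgG replicate 1 (0.93, 0.0263). Ssb, which encodes the La protein that binds the 3′ ends of new polymerase III transcripts, was at 0.42 (SE 0.28), and Maf1, the repressor of polymerase III, at -0.40 (SE 0.22). Over all 63 genes the median was 0.01, against -0.03 over all genes tested.

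**Figure D5:**
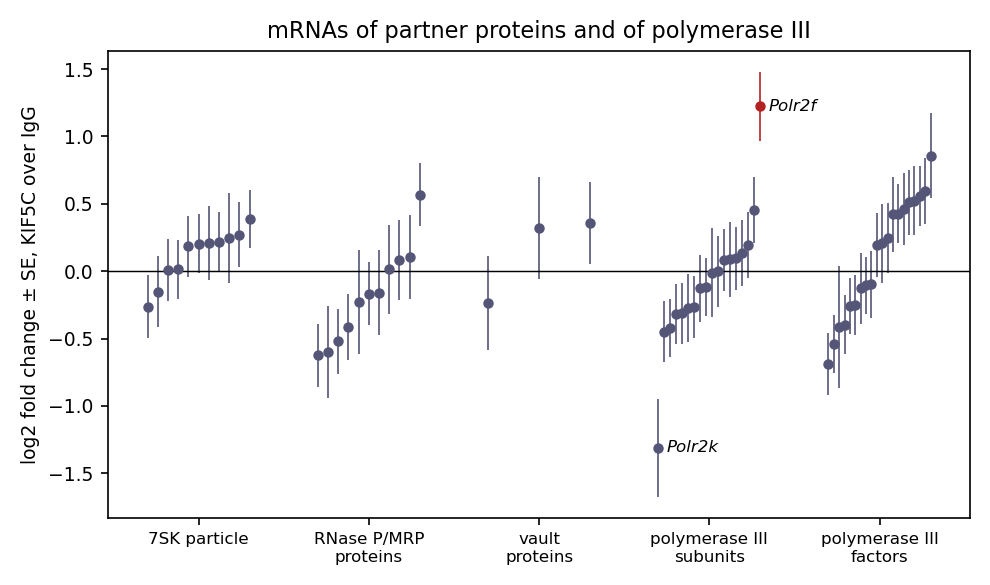
The log2 fold change of KIF5C over IgG with its SE for the mRNAs of partner proteins and of polymerase III, in 5 lists, each sorted by value. Polr2f (red, 1.22) was the 1 gene of 63 past the threshold, against 4.07% of all genes tested in either direction. Polr2k lay at -1.31.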

How the data were processed

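Raw counts per gene symbol, as whole numbers, were deposited by the authors for 4 libraries. Salmon, DESeq and the build GRCm38 are named in the submitters' processing notes, without versions, settings or annotation. Salmon shares reads between similar transcripts, which makes overlapping genes uncertain. The authors' deposited comparison holds log2 fold changes with standard errors on the log2 scale, p-values and a test score, per the file headers.

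Counts were tested with edgeR 4.0.16 in R 4.3.3 (TMM, filterByExpr with minimum count 10 and total 15, quasi-likelihood F test, no other term than the antibody), with Benjamini-Hochberg adjustment over 14357 genes, and SE is the log2 fold change over the square root of F. CPM is TMM-scaled. The procedure was tested on simulated data. In 27 rows a gene name had become a date; they held 0.121% to 0.252% of counts and are not named. Of 37411 rows, 36148 matched a GENCODE M21 symbol. Length is that of the longest transcript. DESeq2 1.42.0 and limma 3.58.1 (voom) served as alternatives, and the offsets came from lowess fits (span 0.3) on length and GC content. The RNAs, gene lists and tests were chosen with earlier results of these data known. Named genes were the 4 RNAs, other polymerase III RNAs, called or otherwise the lowest-p partner genes, neighbours within 2000 bases and the 3 nearest patterns per RNA. The small RNA classes and Larp7, Mepce, Hexim1, Cdk9, Malat1, Polr3b, Ssb and Maf1 were named for their roles. Snapc3, Gtf3c1, Ttr, Kl, Mog, Mag and Mobp were named after their values were seen.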

Additional observations from a re-analysis of the deposited data

How the results depend on the processing

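Over 13 alternatives Rn7sk kept its negative value and missed the threshold in each (-1.90 to -0.17). Rpph1 stayed negative and passed with no low-count filter (-0.90) and with the replicate block (-1.11), and ranged from -2.18 to -0.21 with 1 library left out. Rmrp turned to 0.10 without KIF5C replicate 1 and otherwise reached -1.14 with 1 library left out. Vaultrc5 stayed negative and missed the threshold with DESeq2 (-1.43), library totals (-1.28) and length and GC offsets (-0.95), and ranged from -2.34 to -0.79 with 1 library left out. The cause was not tested. Genes called higher numbered 478, against 1 with library totals, 902 with no filter, 1162 with the replicate block and 111 to 978 with 1 library left out. Those called lower numbered 107, against 4 with library totals, 174 with protein-coding totals, 261 with no filter, 518 with the replicate block, 161 with length and GC offsets and 25 to 586 with 1 library left out. Library totals moved the median of all genes from -0.03 to 0.11. Of the partner genes, 1 was called higher, against 0 with library totals, 2 each with no filter, the replicate block and the offsets, and 0 to 3 with 1 library left out. None was called lower by edgeR as reported (5 at an unadjusted p under 0.05, against 9.06% of all genes tested) or by limma-voom. None was called lower by DESeq2 either, which gave Polr2k no adjusted p. The number was 1 each with DESeq2's size factors, protein-coding totals and no filter. It was also 1 each with a mean count of at least 50, the replicate block and the offsets. The labels do not say that a replicate number marks a shared batch, and deviations of same-numbered libraries correlated at 0.16 over 14357 genes. Where 1 library stood alone for its antibody it was assumed to vary like the other antibody. Depth limits Vaultrc5 (211 to 603 counts) and the vault protein mRNAs.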
